A study of Homo sapiens with 31 samples.

Results

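NALM-6 cells carrying sh-XIAP were compared between the late days of the experiment, 10 and 13 days after transduction, and day 4. The 15 samples were those labelled sh-XIAP, from 31 in all, and the comparison was chosen with earlier results of these data known. Of them, 11 were late samples (2 of EF1a/sh-XIAP and 3 of SFFV/sh-XIAP at day 10, 3 of each at day 13). The other 4 were samples of day 4 (2 of each construct). NALM-6 is an established line of B-cell precursor acute lymphoblastic leukaemia (ALL). Every sample carried a lentiviral cassette in which the EF1a or the SFFV promoter drove both a fluorescent marker and an shRNA placed in a miR30 backbone, with EF1a giving moderate and SFFV strong knockdown (KD) in the study's terms. No untransduced cells and no sample taken before transduction were analysed here, so day 4 is the earliest point and not a baseline without shRNA. The labels describe culture in vitro, whereas the design text speaks of cells isolated from murine bone marrow, and the labels were followed. Nothing in the labels says whether samples of one construct came from separate cultures, and p-values therefore measure the spread between these samples, which may be technical. The 16 sh-CTRL samples (6 of day 4 and 10 of the late days) were used only to set the same change beside that of sh-XIAP.

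XIAP, the X-linked inhibitor of apoptosis protein, binds and blocks the executioner caspases and the initiator caspase-9, and the related proteins cIAP-1 and cIAP-2 are encoded by BIRC2 and BIRC3. An shRNA lowers a transcript over the days after transduction, so late samples have lived longer with the knockdown than day 4 samples. They also have lived longer after transduction and in culture, and time and knockdown can only be set apart through the sh-CTRL samples. NALM-6 resembles a pre-B cell, the stage at which the immunoglobulin heavy chain is paired with a surrogate light chain made of VPREB1 and IGLL1 before a kappa or lambda light chain takes its place.

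Expression was measured by prime-seq, as the labels name it, a bulk method that counts unique molecular identifiers (UMIs) at the 3′ end of transcripts. Total UMIs were 706888 to 979847 at day 4 (median 751952.5) and 312852 to 1148669 at the late days (median 552404). Values are CPM, UMI counts scaled to the library's total, as mean ± SD, with 4 samples at day 4 and 11 at the late days unless stated. Since the method counts molecules of a mixed sample, fewer cells of one kind and less RNA per cell cannot be told apart. All 13 pre-B ALL markers had UMIs, with sums of 5670 to 5900 CPM at day 4 and 5500 to 6120 CPM late. Of the markers of other cells, 7 of 12 for T cells, 4 of 12 for myeloid cells, 8 of 12 for erythroid cells and megakaryocytes, 2 of 9 for plasma cells and 6 of 12 for stroma and epithelium were at 0 in all 15 samples or not listed, HBA1, GATA1, CD3E and IGKC among them. The plasma cell sum was 762 to 833 CPM at day 4 and 740 to 943 CPM late. That of T cells was 67.5 to 79.6 CPM and 54.3 to 80.8 CPM. The myeloid sum was 8.02 to 18.4 CPM at day 4 and 6.35 to 41.6 CPM late. For erythroid cells and megakaryocytes it was 0 to 7.94 CPM and 0 to 7.29 CPM. For stroma and epithelium it was 9.9 to 12.2 CPM and 7.62 to 19.2 CPM. The part of such cells in the results was not tested. Replicates 2 of both sh-XIAP constructs at day 10, the shallowest libraries with 315055 and 312852 UMIs, each stood alone on one of the first principal components, which held 13.3% and 13.2% of the variance.

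No difference of XIAP itself between the late days and day 4 was detectable at this depth. Its level was 12.7 and 9.19 CPM in EF1a/sh-XIAP and 8.02 and 9.27 CPM in SFFV/sh-XIAP at day 4, and 6.35 to 14.6 CPM (median 9.05) late. The groups overlapped throughout, and each library held only 2 to 9 UMIs of XIAP. The mean was 9.80 ± 2.04 CPM at day 4 and 9.20 ± 2.38 CPM late (log2 difference −0.13 ± 0.29 SE, limma adjusted p = 0.985, exact permutation p = 0.619). In sh-CTRL XIAP was 9.28 ± 3.57 CPM at day 4 (n = 6) and 10.5 ± 4.43 CPM late (n = 10). Whether sh-XIAP lowered the transcript below sh-CTRL was not tested, and its late change did not differ detectably between the promoters (difference of log2 changes −0.35 ± 0.39 SE, adjusted p = 0.977). BIRC2 was measured at 31.01 ± 6.71 CPM and 33.86 ± 6.70 CPM (adjusted p = 0.984). BIRC3 was listed with no UMI in most libraries, at most 2.67 CPM, and was not tested. Of the 4 members of the IAP list with at least 10 CPM (HTRA2, BIRC6, BIRC5 and BIRC2) none passed, and the same holds for the 10 caspase and apoptosome genes (smallest adjusted p = 0.923) and the 14 BCL2 family genes (0.918).

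Across the transcriptome few genes moved, and the changes were small. limma-voom with promoter as a covariate called 32 of 18095 genes at the study's threshold of adjusted p of at most 0.25 (0.177% of genes tested), 10 higher at the late days (0.0553%) and 22 lower (0.122%). A share of 0.25 of the calls may be false at this threshold. Of the 18095 genes, 1009 had an unadjusted p under 0.05, where chance alone gives a share of about 0.05. edgeR's quasi-likelihood test called 27, and 17 genes passed both (0.0939%), 7 higher and 10 lower. The direction split depended on scaling: without TMM normalization 13 were higher and 12 lower, and with DESeq2 size factors 10 and 10. DESeq2 itself called 11 higher and 3 lower. Late libraries were shallower in the median, but the deepest library was a late one (1148669 UMIs). With log2 total UMIs as a covariate all 32 genes stayed among 66 called. With all libraries thinned to the smallest total only 10 genes were called, 5 of them among the 32. The rule for named genes (both tests passed, at least 10 CPM, the same sign under both promoters, no pseudogene) left 4 higher genes, IGLC7, IGLC3, IGLC2 and BANF1, and 6 lower genes, CDKN1A, CLEC14A, MT-TT, STAT3, LCP1 and PIK3R1. With thinned counts only IGLC7 and IGLC3 of these still passed. The number of calls fell to 18 without EF1a/sh-XIAP day 4 replicate 1, to 19 without SFFV/sh-XIAP day 4 replicate 1, to 16 without SFFV/sh-XIAP day 4 replicate 3 and to 20 without EF1a/sh-XIAP day 13 replicate 3.

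The genes that rose most clearly encode the constant region of the immunoglobulin lambda light chain. They lie side by side on chromosome 22 and are so alike that reads can be split between them. Over the aligned bases of their GENCODE 29 transcripts IGLC2 and IGLC3 were 99.1% identical, IGLC2 and IGLC7 93.2%, and IGLC2 and the pseudogene IGLC6 95.8%, while IGLL1, which encodes the lambda-like part of the surrogate light chain, was 86.8% identical to IGLC2. The following 30 bases of the plus strand (GRCh38) are shown because, of the stretches that align without a gap in all 4 genes, they hold the most differing positions, and capitals mark the bases that differ from IGLC2.
IGLC2, chr22:22901056-22901085: tgtctcataagtgacttctacccgggagcc
IGLC3, chr22:22906422-22906451: tgtctcataagtgacttctacccgggagcc
IGLC6, chr22:22919615-22919644: tgCctGatCagtgacttctacccgggagcT
IGLC7, chr22:22922674-22922703: tgtctcGtaagtgacttcAacccgggagcc
IGLC3 had no difference from IGLC2 in this stretch, IGLC7 had 2 and IGLC6 had 4. How the deposited counts divide reads that fit several of these genes is not given in the sources used here, and each gene's own level is uncertain to that extent.

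IGLC7 (chr22:22922594-22923034) had the smallest limma-voom p of all genes, but not the smallest edgeR p. At day 4 it was 1805 and 1896 CPM in EF1a/sh-XIAP and 1879 and 1963 CPM in SFFV/sh-XIAP, and late it ranged from 2100 to 2402 CPM (median 2239). Every late sample was above every day 4 sample. The mean rose from 1886 ± 64.8 to 2234 ± 97.0 CPM (log2 0.21 ± 0.02 SE, limma adjusted p = 2.93e-09, edgeR 0.0551). The exact permutation test gave p = 0.0017, the smallest its 588 arrangements of the day labels within promoter allow. This p is not adjusted for the 18095 genes tested. It and the lack of overlap come from the same samples by which the gene was picked, and are given as description. The same holds for the other called genes below. IGLC7 passed in all 19 other fits run and with each of the 15 samples left out.

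IGLC6, annotated as a pseudogene of the same array, rose by more. Its level was 431.5, 439.9, 372.8 and 399.7 CPM in the day 4 samples and 485.0 to 757.3 CPM (median 591.4) late, again without overlap. The mean went from 411 ± 30.8 to 597 ± 73.6 CPM (log2 0.51 ± 0.07 SE, limma adjusted p = 9.32e-06, edgeR 2.1e-12).

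IGLC3 was 591.3, 602.1, 546.5 and 574.4 CPM at day 4 and 601.1 to 792.9 CPM late, and IGLC2 was 365.0, 375.6, 352.8 and 360.0 CPM at day 4 and 351.6 to 546.8 CPM late. Both overlapped between the groups at their edges. IGLC3 rose from 579 ± 24.2 to 691 ± 59.1 CPM (log2 0.24 ± 0.05 SE, limma adjusted p = 0.0155). IGLC2 rose from 363 ± 9.57 to 467 ± 67.0 CPM (log2 0.33 ± 0.07 SE, limma adjusted p = 0.0206). Both passed with each of the 15 samples left out. Neither passed limma-voom in the EF1a/sh-XIAP samples alone (IGLC3 log2 0.15, adjusted p = 0.69, and IGLC2 0.22, 0.659). IGLC2 was also lost with counts thinned to the smallest total (0.737). Summed over the 6 genes IGLC2 to IGLC7, which does not depend on how reads were split among them, the level was 3200 to 3373 CPM at day 4 and 3654 to 4577 CPM late, a rise of the mean from 3295 ± 82.3 to 4070 ± 283 CPM (exact permutation p = 0.0017).

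No member of the pre-B-cell receptor and recombination list passed under TMM. Of 17 members with at least 10 CPM, 10 were higher and 7 lower, with a median log2 difference of 0.03. IGLL1 had 1380 ± 65.2 CPM at day 4 and 1491 ± 70.9 CPM late (log2 0.10 ± 0.03 SE, adjusted p = 0.577), and it passed without TMM (log2 0.12, adjusted p = 0.161). In sh-CTRL it was called higher by limma-voom, from 1371 ± 69.3 to 1518 ± 59.3 CPM (log2 0.16, adjusted p = 0.00127, edgeR 0.495). VPREB1, its partner in the surrogate light chain, differed by 0.07 ± 0.05 SE and IGHM, the heavy chain, by 0.05 ± 0.03 SE on the log2 scale, and RAG2, part of the recombinase, by −0.31 ± 0.12 SE (adjusted p = 0.771).

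BANF1, which encodes a chromatin-binding protein that helps the nuclear envelope to re-form after mitosis, was the other named gene that rose. It was 93.4 and 72.5 CPM in EF1a/sh-XIAP and 78.8 and 70.2 CPM in SFFV/sh-XIAP at day 4, and 95.3 to 129.4 CPM (median 108.3) late, without overlap. The mean rose from 78.7 ± 10.4 to 109 ± 11.2 CPM (log2 0.45 ± 0.11 SE, limma adjusted p = 0.175, edgeR 0.0781). It no longer passed without EF1a/sh-XIAP day 4 replicate 2 (adjusted p = 0.537), SFFV/sh-XIAP day 4 replicate 1 (0.473) or SFFV/sh-XIAP day 4 replicate 3 (0.66).

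CDKN1A, which encodes the cyclin-dependent kinase inhibitor p21 and is the best known target of p53, fell. Its day 4 levels were 406.0 and 450.1 CPM in EF1a/sh-XIAP and 449.0 and 444.7 CPM in SFFV/sh-XIAP, and late levels were 329.2 to 412.5 CPM (median 367.3). A single day 4 sample, EF1a/sh-XIAP replicate 1, lay within the late range. The mean fell from 437 ± 21.1 to 368 ± 27.9 CPM (log2 −0.28 ± 0.05 SE, limma adjusted p = 0.00778, edgeR 0.0288, exact permutation p = 0.0051), and the gene passed with each of the 15 samples left out. It passed in 17 of the 19 other fits, and was lost with counts thinned to the smallest total (adjusted p = 0.63) and in the EF1a/sh-XIAP samples alone (0.571).

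Of 23 p53 targets with at least 10 CPM, 18 were lower and 5 higher, and this count was the same under each of the 3 scalings. Their median log2 difference was −0.11, beside −0.025 for all 10272 genes of at least 10 CPM, but CDKN1A was the only member that passed limma-voom. MDM2, which encodes the ligase that degrades p53, differed by −0.21 ± 0.09 SE (adjusted p = 0.777) and SESN1, a stress-induced sestrin, by −0.35 ± 0.19 SE (adjusted p = 0.893). RPS27L, a p53 target outside the list, was 128 ± 7.10 CPM at day 4 and 101 ± 13.2 CPM late. It passed edgeR (adjusted p = 0.198) and narrowly missed limma-voom (0.251).

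PRDX1, a peroxiredoxin that reduces hydrogen peroxide, was also lower late. It was 1603, 1627, 1740 and 1683 CPM in the day 4 samples and 1378 to 1604 CPM (median 1527) late, so that the lowest day 4 sample lay just under the highest late one. The mean fell from 1663 ± 61.3 to 1506 ± 65.3 CPM (log2 −0.16 ± 0.02 SE, limma adjusted p = 4.31e-05, exact permutation p = 0.0017) but did not pass edgeR (0.357). Its processed pseudogene PRDX1P1, which can take up reads of the parent, passed both tests (78.0 ± 6.04 to 53.8 ± 8.94 CPM), and the sum of both fell from 1741 ± 66.9 to 1560 ± 68.6 CPM without overlap. Among the 20 antioxidant and thioredoxin genes PRDX1 was the only one called, with 10 higher and 10 lower. FTH1, the ferritin heavy chain, was 148 ± 15.3 CPM at day 4 and 123 ± 25.4 CPM late (limma adjusted p = 0.555, edgeR 0.215), and its sum with its pseudogenes was 372 ± 35.8 and 264 ± 49.2 CPM (exact permutation p = 0.0051).

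STAT3 and PIK3R1 encode signalling proteins, the former a transcription factor activated by cytokine receptors and the latter a regulatory subunit of phosphoinositide 3-kinase. STAT3 was 52.3, 55.1, 53.5 and 51.6 CPM at day 4 and 25.6 to 43.2 CPM (median 34.9) late, and no late sample reached a day 4 sample. The mean fell from 53.1 ± 1.52 to 35.4 ± 5.32 CPM (log2 −0.60 ± 0.14 SE, limma adjusted p = 0.107, edgeR 0.116, exact permutation p = 0.0017). With only 4 day 4 samples that lay close together, the call was lost without EF1a/sh-XIAP day 4 replicate 1 (0.287) or 2 (0.428), SFFV/sh-XIAP day 4 replicate 1 (0.374) or 3 (0.306), and EF1a/sh-XIAP day 13 replicate 3 (0.448). PIK3R1 was 117.4, 95.9, 89.5 and 90.0 CPM at day 4 and 57.5 to 91.1 CPM (median 72.5) late, with overlap (98.2 ± 13.1 to 72.6 ± 11.4 CPM, log2 −0.43 ± 0.11 SE, limma adjusted p = 0.236). It passed with 2 of the 15 samples left out in turn and in 5 of the 19 other fits. It was lost with construct and replicate number together as a random block (adjusted p = 0.267).

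CLEC14A, a C-type lectin known from endothelium, and LCP1, the actin-bundling protein of leukocytes, completed the lower protein-coding genes left by the rule for named genes. CLEC14A was 256.1 and 263.3 CPM in EF1a/sh-XIAP and 220.5 and 215.7 CPM in SFFV/sh-XIAP at day 4, and 165.4 to 221.2 CPM late. Both EF1a/sh-XIAP samples of day 4 lay above all late samples, and both SFFV/sh-XIAP samples lay within the late range. The mean fell from 239 ± 24.3 to 194 ± 16.6 CPM (log2 −0.33 ± 0.07 SE, limma adjusted p = 0.0654). The call was lost without EF1a/sh-XIAP day 4 replicate 1 (0.305) or 2 (0.497), EF1a/sh-XIAP day 13 replicate 3 (0.418) or SFFV/sh-XIAP day 13 replicate 1 (0.288). LCP1 was 452.7, 421.5, 411.6 and 382.5 CPM at day 4 and 329.2 to 406.5 CPM late (417 ± 28.9 to 361 ± 27.0 CPM, log2 −0.21 ± 0.06 SE, limma adjusted p = 0.232) and passed with 1 of the 15 samples left out in turn and in 6 of the 19 other fits. It was lost with replicate number as a block (adjusted p = 0.32) and with construct and replicate number together as a random block (0.267). Of 27 actin and actin-binding genes with at least 10 CPM, 19 were lower, and LCP1 was the only one called.

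**Figure D1:**
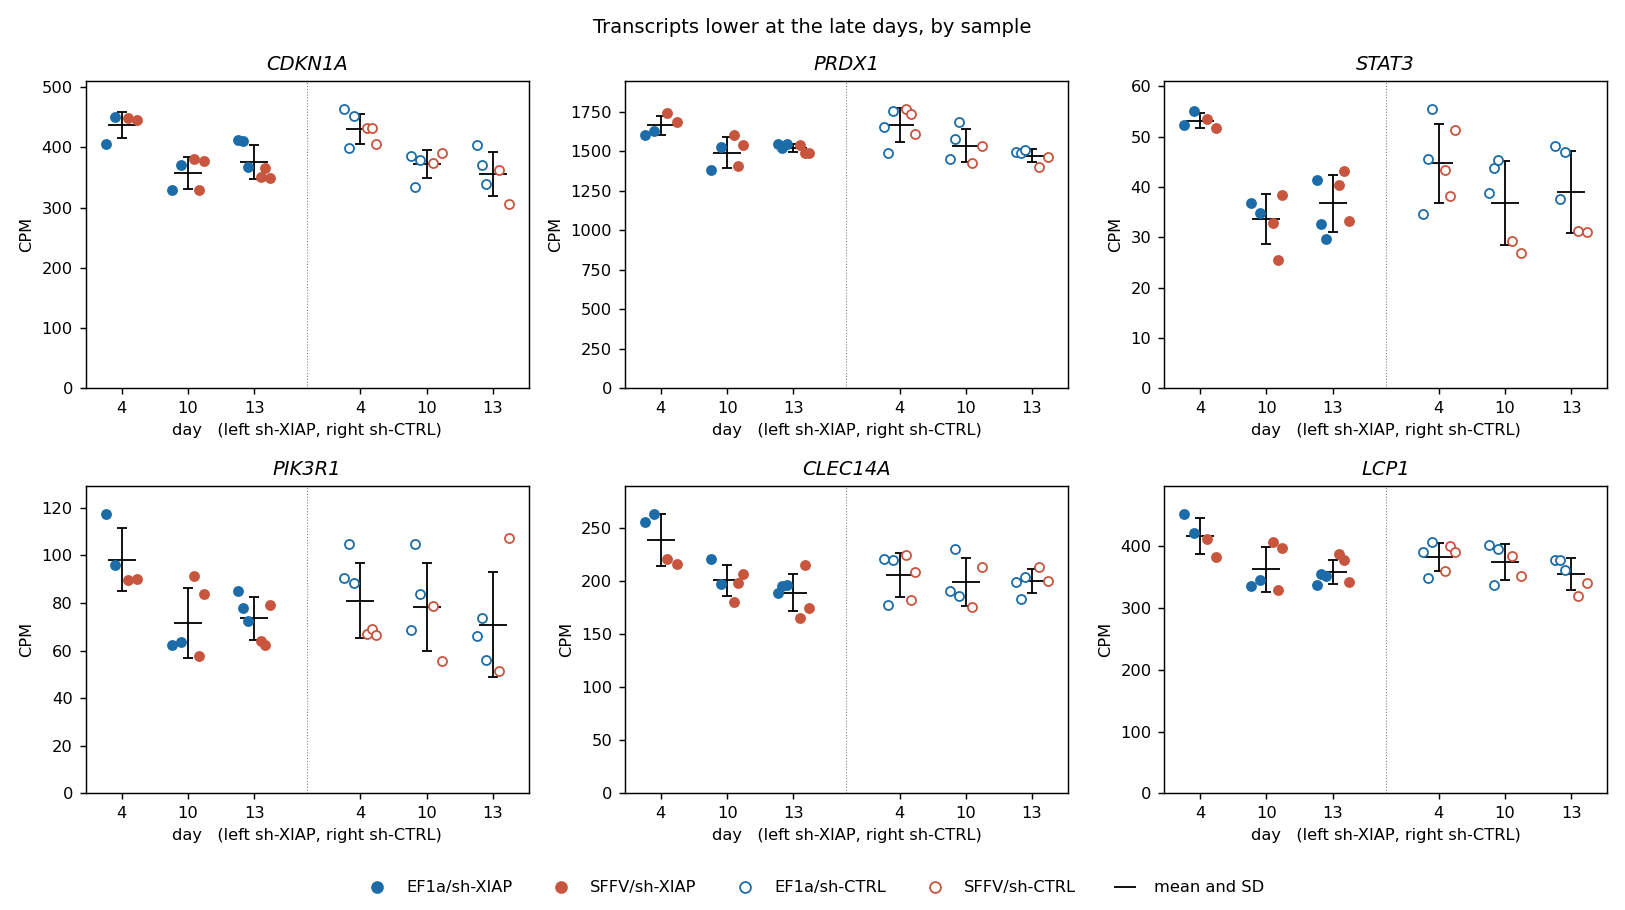
CPM of CDKN1A, PRDX1, STAT3, PIK3R1, CLEC14A and LCP1 (y axes, from 0) by day after transduction (x axes), sh-XIAP at the left and sh-CTRL at the right of each panel. Each point is 1 sample, colour gives the promoter, and bars are mean ± SD of a day. In sh-XIAP the 4 day 4 samples of STAT3 (51.6 to 55.1 CPM) lie above all late samples (25.6 to 43.2 CPM).

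MT-TT, the mitochondrial transfer RNA for threonine, had the largest fall among the named genes, at a low level. It was 22.6, 17.4, 25.4 and 33.1 CPM at day 4 and 5.43 to 25.4 CPM (median 11.5) late (24.6 ± 6.56 to 12.9 ± 5.93 CPM, log2 −1.05 ± 0.23 SE, limma adjusted p = 0.0722). The call was lost without EF1a/sh-XIAP day 4 replicate 1 (0.287) or SFFV/sh-XIAP day 4 replicate 3 (0.592). Of the 15 transcripts of the mitochondrial genome with at least 10 CPM, 13 were lower and 2 higher (median log2 −0.085). MT-CO2 and MT-ATP6, subunits of cytochrome c oxidase and of ATP synthase, were called lower by limma-voom and MT-CO1, another oxidase subunit, higher, and none of the 3 passed edgeR. MT-CO1 was 1303 ± 74.1 CPM at day 4 and 1501 ± 147 CPM late (log2 0.13 ± 0.03 SE, adjusted p = 0.197). The 71 nuclear-encoded genes of the respiratory chain divided into 35 higher and 36 lower, and none was called.

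Several of the most abundant transcripts passed limma-voom although their groups had nearly the same mean. RPL34, a protein of the large ribosomal subunit, was 20050 ± 936 CPM at day 4 and 20170 ± 3450 CPM late (fitted log2 −0.26 ± 0.03 SE, limma adjusted p = 9.32e-06, edgeR 0.996, exact permutation p = 0.968). RPS18, of the small subunit, was 10200 ± 569 and 10150 ± 1280 CPM (limma adjusted p = 0.114, exact permutation p = 0.886), and RPL34P18, a pseudogene of RPL34, 10410 ± 821 and 10380 ± 2850 CPM (limma adjusted p = 4.31e-05, exact permutation p = 0.84). In the fits of RPL34P18, RPS18 and MT-CO2 a single library, EF1a/sh-XIAP day 4 replicate 2, carried 86.8%, 77.3% and 57.7% of the precision weight that limma-voom gave to the 4 day 4 samples. For RPL34 the heaviest of these, EF1a/sh-XIAP day 4 replicate 1, carried 25%. Among the late samples SFFV/sh-XIAP day 10 replicate 3 was the heaviest in each of these fits. It carried 45.1% (RPL34P18), 63.4% (RPS18), 40.2% (MT-CO2) and 23.2% (RPL34) of the late weight. For RPL34P18, RPS18 and MT-CO2 it was also the heaviest of all samples, with 34.6%, 56.1% and 27.7% of the whole weight. Of the 32 called genes, 11 are pseudogenes (34.4%, beside 20.2% of the genes tested).

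Described by gene lists, shifts were slight and often within the range set by scaling. The lists were chosen with earlier results of these data known, and their counts are given as description. With unadjusted p under 0.05 as a mark, 173 of the 10272 genes of at least 10 CPM were higher (1.68%) and 459 lower (4.47%) under TMM. Of 44 genes of G2 and mitosis, 29 were higher (median log2 0.05), 4 of them with an unadjusted p under 0.05, and only TUBA1B, an alpha-tubulin, was called (1282 ± 35.3 to 1397 ± 42.7 CPM, limma adjusted p = 0.11, edgeR 0.969). The other 3 were HMGB2, a chromatin protein (log2 0.09 ± 0.03 SE), CDC25B, a phosphatase that starts mitosis (0.59 ± 0.19 SE), and TUBB, a beta-tubulin (0.07 ± 0.03 SE). Of 43 S-phase genes, 18 were higher and 25 lower, and none was called. Of 19 glycolysis genes, 14 were higher (median log2 0.04), with LDHA, PDK1 and TPI1 at an unadjusted p under 0.05 and none called.

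Of all 10272 genes of at least 10 CPM, 5850 were lower under TMM, with a median log2 difference of −0.0254. This tilt depended on scaling, as the median was 0.00366 without TMM and −2.47e-05 with DESeq2 size factors. Lists with most members lower included the quiescence and FOXO targets (10 of 15, median log2 −0.19), the immediate early genes (12 of 14, −0.099) and the leukaemia surface antigens (12 of 14, −0.072). Without TMM, or with DESeq2 size factors, 9 of the immediate early genes and 10 of the surface antigens were lower. In the first list, CDKN1A was again the only call. DUSP1, a phosphatase of the immediate early list, differed by −0.19 ± 0.07 SE (adjusted p = 0.619). Among the surface antigens IL7R, the interleukin-7 receptor, and CD53, a tetraspanin, had log2 differences of −0.14 ± 0.07 and −0.20 ± 0.08 SE (adjusted p = 0.838 and 0.803). Ribosomal protein genes were lower in 36 of 45 cases for the large and 24 of 32 for the small subunit under TMM, but in only 24 and 17 without it. Of the 31 lists with at least 10 such members, 9 had a median whose sign changed with the scaling, and those named in this and the preceding paragraph kept theirs, except for the S-phase list.

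**Figure D2:**
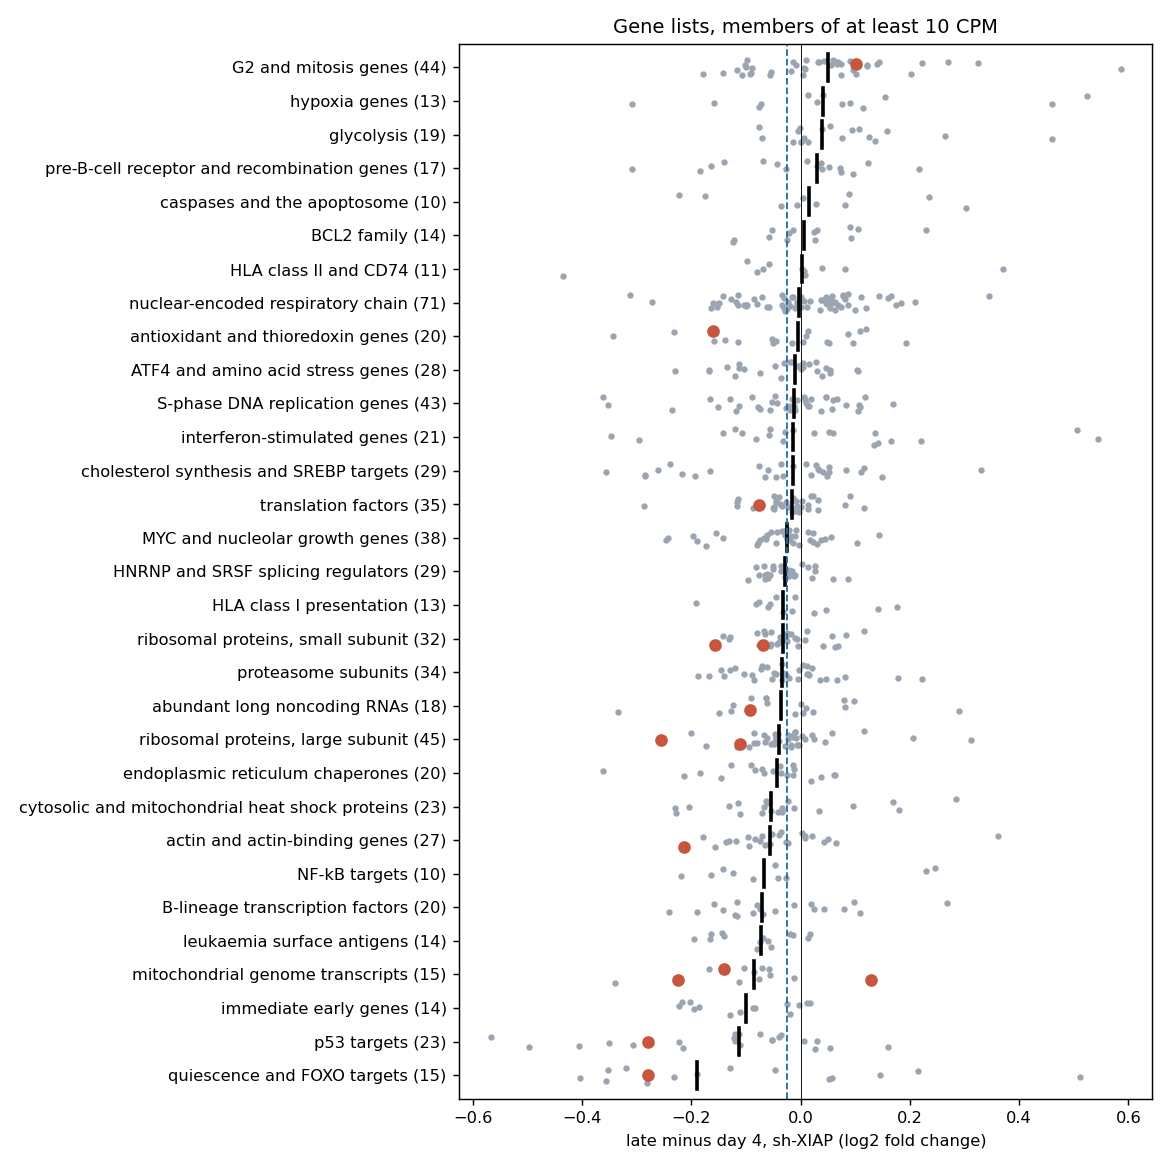
Log2 difference between late days and day 4 in sh-XIAP (x axis) of the members of 31 gene lists (y axis, with the number of members of at least 10 CPM). Grey points are genes, red points passed limma-voom at an adjusted p of at most 0.25, black bars are list medians and the dashed line is the median of all genes of at least 10 CPM (−0.025). The p53 targets and the quiescence and FOXO targets have the lowest medians (−0.11 and −0.19).

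Day 10 (5 samples) and day 13 (6 samples) were each compared with the same 4 samples of day 4. limma-voom called 28 genes at day 10 (0.155%) and 32 at day 13 (0.177%). IGLC7 was higher by 0.22 on the log2 scale at day 10 (adjusted p = 2.76e-08) and by 0.21 at day 13 (8.97e-09). CDKN1A had log2 differences of −0.30 (adjusted p = 0.0572) and −0.27 (0.0356). STAT3 had −0.65 and −0.57 without passing at either day alone. MT-TT had 16.9 ± 5.77 CPM at day 10 and 9.52 ± 3.78 CPM at day 13, and passed at day 13 only (log2 −0.61, adjusted p = 0.868, and −1.31, adjusted p = 0.023), and its difference between the days did not pass. Between day 13 and day 10, limma-voom called 2 genes (0.0111%), RPS18 and RPL34P18, the same abundant transcripts described before, and edgeR called neither of them.

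Few genes changed over time differently under the SFFV and the EF1a promoter. The difference of the late change between SFFV and EF1a passed for 5 genes in limma-voom (0.0276%), RPL3, RPL29 and the pseudogenes RPL35P1, FABP5P2 and AC104046.1, and for 20 in edgeR, with 2 in common. RPL3 went from 4133 to 4273 CPM under EF1a and from 4297 to 4148 CPM under SFFV (difference of log2 changes −0.12 ± 0.02 SE, limma adjusted p = 0.038, edgeR 0.943). For none of the 10 named genes did the difference pass. IGLC6 had the late change with 436 to 567 CPM under EF1a and 386 to 622 CPM under SFFV (difference 0.32 ± 0.13 SE, adjusted p = 0.837). STAT3 went from 53.7 to 35.1 CPM and from 52.5 to 35.6 CPM (0.16 ± 0.28 SE, adjusted p = 0.962), and LCP1 from 437 to 345 CPM and from 397 to 374 CPM (0.26 ± 0.10 SE, adjusted p = 0.831).

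The same comparison in sh-CTRL cells, which share no sample with the sh-XIAP cells, gave 51 called genes of 17711 (0.288%), 37 higher and 14 lower. In the test of the difference itself, 846 of 17676 genes had an unadjusted p under 0.05 in limma-voom and 773 in edgeR. Chance alone gives a share of about 0.05. No gene passed the threshold in limma-voom (0%), and none did in edgeR. This count of 0 rose to 10 without EF1a/sh-XIAP day 4 replicate 2, to 2 without SFFV/sh-XIAP day 10 replicate 2 or SFFV/sh-XIAP day 13 replicate 3, and to 1 without EF1a/sh-CTRL day 4 replicate 1 or SFFV/sh-XIAP day 10 replicate 3. Of the 32 genes called in sh-XIAP, 11 were called in sh-CTRL too, all 11 in the same direction (34.4% of the former and 21.6% of the latter list). These were IGLC7, IGLC6, IGLC5, IGLC3, IGLC2, CDKN1A, PRDX1, PRDX1P1, MT-CO1, MTCO1P40 and RPS19.

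The lambda genes, CDKN1A and PRDX1 thus moved in both kinds of cell. IGLC7 was 1898 ± 148 CPM in sh-CTRL at day 4 (n = 6) and 2154 ± 156 CPM late (n = 10), a log2 change of 0.13 ± 0.03 SE beside 0.21 ± 0.02 SE in sh-XIAP. IGLC2 changed by 0.33 ± 0.05 SE in sh-CTRL, close to its change in sh-XIAP. CDKN1A was 431 ± 24.9 and 364 ± 29.9 CPM in sh-CTRL, and the difference of its log2 changes between the shRNAs was 0.01 ± 0.07 SE (adjusted p = 0.994). The median log2 difference of the p53 targets was −0.145 in sh-CTRL. That of the quiescence and FOXO targets was −0.0082, and those of the ribosomal proteins were 0.016 for the large and 0.012 for the small subunit.

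BANF1, STAT3, CLEC14A, PIK3R1 and LCP1 were not called in sh-CTRL, and for none of them was a difference from sh-XIAP shown. BANF1 was 94.4 ± 11.9 CPM in sh-CTRL at day 4 and 97.8 ± 7.55 CPM late, and the difference of its log2 changes was 0.44 ± 0.14 SE (unadjusted p = 0.00256, adjusted p = 0.805 in limma-voom across all genes). STAT3 was 44.7 ± 7.85 and 37.9 ± 7.91 CPM in sh-CTRL, with a difference of −0.35 ± 0.19 SE (adjusted p = 0.974). CLEC14A was 206 ± 20.9 and 200 ± 16.6 CPM, with a difference of −0.22 ± 0.09 SE (adjusted p = 0.974). TUBA1B had the smallest p of this test, with 1362 ± 68.6 CPM at day 4 and 1365 ± 49.6 CPM late in sh-CTRL and a difference of 0.15 ± 0.03 SE (limma adjusted p = 0.599).

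Across all genes the fitted changes of both kinds of cell were nearly uncorrelated. Most single changes were small beside their error, so a low correlation cannot show that the time courses differ. Across the 10272 genes of at least 10 CPM the log2 changes correlated with Pearson's r of 0.0562, and 51.8% had the same sign, a description across genes, which are not independent replicates. Among the 32 genes called in sh-XIAP, 27 had the same sign in sh-CTRL, and among the 17 that passed both tests all 17 did.

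**Figure D3:**
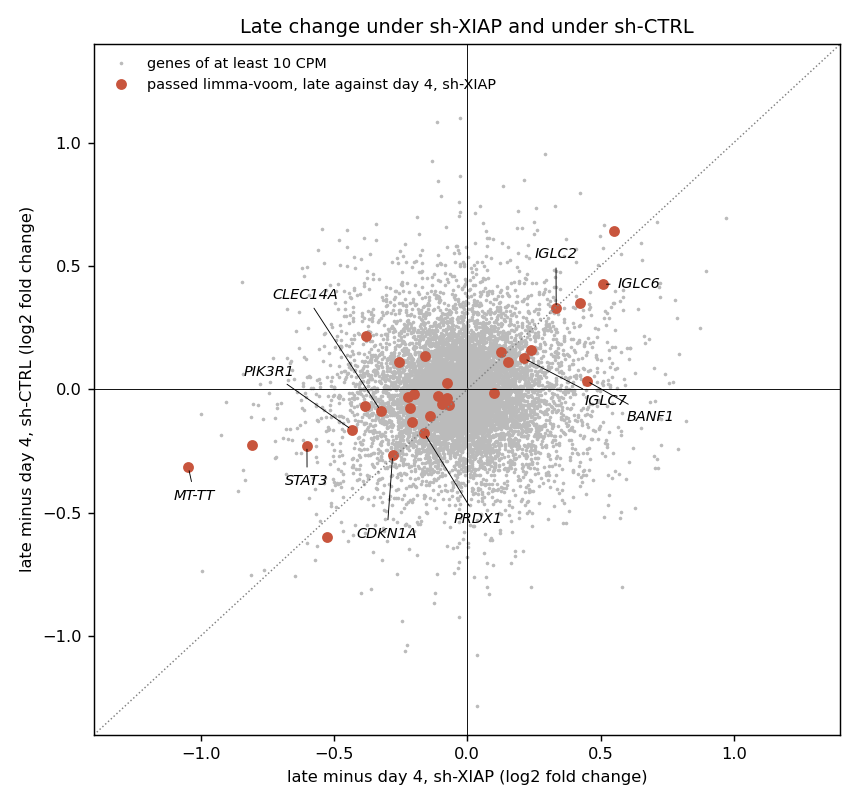
Log2 difference between late days and day 4 in sh-XIAP (x axis) and in sh-CTRL (y axis) of 10272 genes of at least 10 CPM (grey), with the 32 genes called in sh-XIAP in red and the dotted line marking equal change. The lambda genes, CDKN1A and PRDX1 lie off both axes, while BANF1 lies close to a change of 0 in sh-CTRL (log2 0.03).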

How the data were processed

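Members, gene lists and comparisons were chosen with earlier results of these data known. The authors deposited UMI counts, whole numbers without normalization, for 30667 Ensembl gene identifiers. Their processing notes name STAR 2.6.0a and human and mouse builds, while no source used here gives the counter or the annotation. Gene names, types and GRCh38 positions came from GENCODE 29 (29928 identifiers) and a newer name table (731). Groups came from the labels. The study's methods leave out 5 samples as outliers without naming them, and all samples were kept here. The same methods name SCRB-seq adapted to bulk samples of sorted cells, where the labels name prime-seq. A gene was tested if it passed 1 CPM in 1/3 or more of a comparison's samples. Counts were TMM-normalized (edgeR 4.0.16) and fitted with limma-voom (limma 3.58.1, R 4.3.3) with promoter as a covariate and Benjamini-Hochberg adjustment, at the study's adjusted p of at most 0.25. edgeR's quasi-likelihood test and DESeq2 1.42.0 were alternatives. Permutation tests were exact and two-sided, on log2 CPM with a prior count of 2, permuting day within promoter. Named genes were XIAP, BIRC2, BIRC3, up to 12 per direction (rule in the text), up to 3 per direction for the other comparisons and up to 3 per list. IGLC6, IGLC5, PRDX1P1, MTCO1P40, RPS27L, RPL34P18, TUBB, VPREB1, IGHM, RPL28, MIR30A and the remaining pseudogenes were named after their values were seen. Replicate pairs differed beyond counting noise (chi-square per gene 1.09 to 2.18 over 12 pairs), so all samples were kept apart. The procedure was tested on simulated counts.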

Additional observations from a re-analysis of the deposited data

Results flagged for a closer look

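Within groups of 4 to 6 sh-XIAP samples, 18 measures were tested for a sample far from the others (54 groups). Such a sample was held by 4 groups. Chance gives about 1 in 20 for a measure fixed beforehand. Some measures, RPL28, IGLC6 and MIR30A among them, were named after their values were seen, so the count cannot be set against that share. CDKN1A was 406 CPM in EF1a/sh-XIAP day 4 replicate 1, below the other day 4 samples. CLEC14A was 221.2 CPM and PRDX1 1378 CPM in EF1a/sh-XIAP day 10 replicate 1, the former above and the latter below the other late EF1a/sh-XIAP samples. RPL28 was 1704 CPM in SFFV/sh-XIAP day 10 replicate 3, above the other late SFFV/sh-XIAP samples, and the pseudogene AC113398.1 was 491.9 CPM in the same library.

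For 5 genes the late change differed between the promoters by an interaction term in limma-voom, given as the log2 change under SFFV minus that under EF1a. It was −0.117 for RPL3 (adjusted p = 0.038), −0.222 for RPL29 (0.2), 0.327 for RPL35P1 (0.2), 1.47 for FABP5P2 (0.2) and 1.67 for AC104046.1 (0.209). FABP5P2 went from 52.7 to 25.3 CPM under EF1a and from 41.9 to 59.2 CPM under SFFV, and AC104046.1 from 48.0 to 23.1 CPM and from 36.0 to 53.1 CPM. The last 2 also passed edgeR (0.0114 and 0.00769).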

How the results depend on the processing

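For the late days against day 4 in sh-XIAP (32 calls), edgeR, filterByExpr, no TMM, no filter and sample weights gave 22 to 43 calls. All 31 samples, no promoter term and day with 3 levels stayed in this range. So did construct and replicate number together as a random block (consensus correlation −0.0496), though the labels do not say that these mark a culture. Leaving out the 2 shallowest libraries gave 27, and leaving out these and SFFV/sh-XIAP day 10 replicate 3 gave 33, both chosen after the data were seen. No filter gave 29 higher and 14 lower. Counts thinned to 312852 UMIs gave 10, thresholds of 0.05 and 0.1 gave 12 and 14, DESeq2 14, DESeq2 size factors 20, log2 total UMIs as a covariate 66 (all 32 among them), EF1a samples only 57, SFFV samples only 20, and protein-coding and immunoglobulin genes only 20 (11 higher, 9 lower, added after the data were seen). The named genes kept their direction in all alternatives run.

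At day 10 (28 calls) edgeR and filterByExpr gave 14 each, thinning 8 and a threshold of 0.05 gave 12. At day 13 (32) edgeR gave 13, thinning 4 and 0.05 gave 17. Between days 13 and 10 (2) edgeR gave 12 and filterByExpr 0 (limma-voom, 1045 at an unadjusted p under 0.05 in the main filter). Between the promoters (5) edgeR gave 20, thinning 1 and 0.05 gave 1. In sh-CTRL (51) filterByExpr gave 90, thinning 17 and 0.05 gave 15.

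With each sample left out, calls ranged from 16 to 30 (late days), 7 to 29 (day 10), 16 to 39 (day 13), 1 to 5 (between late days), 0 to 22 (between promoters), 0 to 10 (between shRNAs) and 27 to 63 (sh-CTRL). Day 10 calls fell to 7 without SFFV/sh-XIAP day 10 replicate 3 and to 16 to 18 without EF1a/sh-XIAP day 4 replicate 1, SFFV/sh-XIAP day 4 replicates 1 and 3, replicate 2 of either construct at day 10 or EF1a/sh-XIAP day 13 replicate 3. Day 13 calls fell to 18 without EF1a/sh-XIAP day 4 replicate 2 and to 16 without EF1a/sh-XIAP day 13 replicate 3. Sh-CTRL calls fell to 27 to 30 without EF1a/sh-CTRL day 4 replicate 3, SFFV/sh-CTRL day 4 replicate 1 or 2, or EF1a/sh-CTRL day 13 replicate 2. Between promoters, only leaving out SFFV/sh-XIAP day 4 replicate 1 (4 calls) kept the count within 1.5 times. Between the late days, 1 call was left without SFFV/sh-XIAP day 10 replicate 3 or EF1a/sh-XIAP day 13 replicate 3, 4 without SFFV/sh-XIAP day 10 replicates 1 or 2 or EF1a/sh-XIAP day 13 replicate 1, and 5 without EF1a/sh-XIAP day 4 replicate 1.

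Correlations of deviations were −0.0167 to 0.0179 over 13 pairs of samples with equal replicate numbers. Over 24 pairs with different numbers they were −0.0179 to 0.02. Deviations mirror each other in the smallest groups, so many of these values are copies with the sign reversed. These correlations therefore cannot decide whether equal numbers mark a pairing. With a replicate block the counts were 32 (late days, 30 of them shared), 26, 32, 1 (between late days), 13 (between promoters), 0 and 43. The causes were not tested. Few UMIs limit XIAP, and the 4 samples of day 4 limit the sh-XIAP comparisons with that day.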

Other observations

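UMIs were also assigned to MIR30A, the microRNA gene on chr6:71403551-71403621 (minus strand, GRCh38) after which the miR30 backbone of the cassette is named. It was 12.7 and 21.4 CPM in EF1a/sh-XIAP and 37.4 and 29.1 CPM in SFFV/sh-XIAP at day 4, and 4.15 to 32.0 CPM (median 16.2) late. The mean was 25.2 ± 10.6 CPM (n = 4) and 15.6 ± 7.06 CPM (n = 11), with a log2 difference of −0.81 ± 0.23 SE that did not pass (limma adjusted p = 0.397), and the log2 difference in sh-CTRL was −0.75 ± 0.23 SE (0.397). Whether these UMIs came from the cassette was not tested.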
